A study of Mus musculus with 4 samples.

Results

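S phase and mitosis genes were followed in satellite cells, the stem cells of skeletal muscle, isolated from the mouse line Tg:Pax7-nGFP, whose nuclear GFP follows the satellite cell factor Pax7. The set holds 42 genes chosen by symbol among the 55487 gene identifiers of the deposited tables. Of these, 20 were classed with DNA replication from the G1/S transition on, and 22 with G2 and mitosis, called mitosis genes here. Not every gene of a class acts in that step alone. Minced muscle received either a vivo-morpholino against Numb exon 6 or a control morpholino in the initial digestion, before the cells were isolated. A vivo-morpholino is an antisense oligomer that enters cells without transfection, and here it was designed to keep that exon out of the transcript. Both morpholinos were applied to muscle of the same 2 mice, with 1 library for each combination, so the groups hold 2 libraries each and share their animals. The age of the mice is not given in the sources used here. All 42 genes passed the filter on low counts.

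Quiescent satellite cells stay outside the cell cycle and re-enter it when they are activated, as by injury or by removal from the muscle. In G1, phosphorylation of the RB family releases E2F factors, and E2F then drives genes for origin licensing, the replication fork and deoxynucleotide supply, with which the cell enters S phase. Genes of the later cycle are held down in quiescence by the DREAM complex, which binds the CHR element of their promoters, and are activated in G2 by MYBL2 and FOXM1. Replication transcripts therefore appear before mitotic ones in a cell that enters its cycle.

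Promoter sequences were searched for E2F and CHR elements, and 4 are printed here because their genes are described below. They are RefSeq sequences of build GRCm38.p6, read on the strand of the gene, with 250 bases before and 50 after the RefSeq gene start, which need not be the start in the GENCODE gene spans given further on. Capitals mark matches on either strand to a motif. The E2F motif was searched as TTTGGCG, in a second spelling as TTTCCCG, in another as TTTCGCG and in the last as TTTGCCG. The CHR motif was searched as TTTGAA or, in its other spelling, as TTCGAA. The Cdc6 window (chr11:98907901-98908200, plus strand) holds 1 E2F match and no CHR match. The Mcm6 window (chr1:128359656-128359955, minus strand) holds 3 E2F matches, of which a pair overlap. The Cdk1 window (chr10:69352863-69353162, minus strand) holds 1 E2F and 2 CHR matches. The Mki67 window (chr7:135716330-135716629, minus strand) holds 2 CHR matches.
Cdc6: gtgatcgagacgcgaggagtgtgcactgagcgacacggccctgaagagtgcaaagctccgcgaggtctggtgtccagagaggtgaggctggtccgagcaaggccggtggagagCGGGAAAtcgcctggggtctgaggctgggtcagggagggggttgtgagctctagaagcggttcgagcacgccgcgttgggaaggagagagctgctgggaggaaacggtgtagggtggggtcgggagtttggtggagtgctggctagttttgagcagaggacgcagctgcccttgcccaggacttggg
Mcm6: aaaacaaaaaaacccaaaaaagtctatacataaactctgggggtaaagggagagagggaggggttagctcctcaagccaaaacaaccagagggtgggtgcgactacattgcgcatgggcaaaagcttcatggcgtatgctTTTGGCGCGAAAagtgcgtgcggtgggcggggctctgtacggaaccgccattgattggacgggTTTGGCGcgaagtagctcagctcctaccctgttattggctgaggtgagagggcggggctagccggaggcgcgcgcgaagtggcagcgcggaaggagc
Cdk1: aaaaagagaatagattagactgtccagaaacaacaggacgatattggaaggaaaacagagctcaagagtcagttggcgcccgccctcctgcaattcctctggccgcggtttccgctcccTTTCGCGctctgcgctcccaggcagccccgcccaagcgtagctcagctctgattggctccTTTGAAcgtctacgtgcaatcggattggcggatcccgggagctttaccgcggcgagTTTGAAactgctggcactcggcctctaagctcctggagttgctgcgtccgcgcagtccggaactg
Mki67: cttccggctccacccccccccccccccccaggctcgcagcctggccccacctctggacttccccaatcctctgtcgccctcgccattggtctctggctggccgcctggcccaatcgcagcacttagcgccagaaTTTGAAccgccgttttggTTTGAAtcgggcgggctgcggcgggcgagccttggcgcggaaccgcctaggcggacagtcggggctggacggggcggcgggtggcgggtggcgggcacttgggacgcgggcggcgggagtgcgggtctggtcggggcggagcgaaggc

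RefSeq promoters were matched by symbol for 17 replication genes (20 promoters) and 17 mitosis genes (17 promoters). An E2F match was found in 9 of the 20 replication promoters and in 2 of the 17 mitosis promoters, against 6.70% of all 32851 promoters. A CHR match was found in 13 of the 17 mitosis promoters and in 3 of the 20 replication promoters, against 19.2% of all promoters. CCAAT, the element bound by NF-Y and searched on both strands, was in 15 mitosis and 14 replication promoters, against 37.4% of all. Of the 4 printed windows only that of Cdk1 held both an E2F and a CHR match, and these did not overlap. The median GC content was 58.7% in mitosis and 58.0% in replication promoters, against 52.7% over all. These are matches of letters and not mapped binding sites.

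Satellite cell markers were abundant in the libraries. The median of their mean TPM was 389, against 1.64 over all genes tested. It was 89.1 for fibro-adipogenic progenitor, 6.60 for endothelial, 3.26 for erythroid and 1.14 for leukocyte markers. All 10 satellite cell markers were above the median of tested genes, as were all 10 fibro-adipogenic progenitor and all 10 endothelial markers. Pax7 stood at 50.9 and 59.7 TPM with the Numb exon 6 morpholino and at 37.0 and 51.4 TPM with the control (mouse 1 and mouse 2). Numb itself stood at 39.7 and 40.2 TPM with the Numb exon 6 morpholino, against 27.2 and 37.0 TPM with the control, and values per gene do not show whether its exon was skipped. Estimated counts totalled 318663258 and 230431665 in the Numb exon 6 libraries, against 355411827 and 306485954 in the control libraries. They derive from coverage and cannot be read as numbers of fragments. Members had between 167 and 42554 estimated counts in a library. In bulk RNA, a change in the number of cells in S phase or mitosis and a change in RNA per cell cannot be told apart.

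Replication transcripts were more abundant than mitotic ones, whose median lay near that of all genes tested. TPM is scaled to transcript length, so genes can be compared on it. The median of the mean TPM was 11.0 over the replication genes and 1.93 over the mitosis genes, against 1.64 over the 27551 genes tested. The replication genes summed to 438 and 434 TPM in the Numb exon 6 libraries of mouse 1 and mouse 2, and to 380 and 426 TPM in the control libraries. The mitosis genes summed to 114 and 109 TPM in the Numb exon 6 libraries, and to 118 and 101 TPM in the control libraries. Of the members, 18 of 20 replication genes and 13 of 22 mitosis genes exceeded the median of tested genes.

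Single genes made up much of either sum. Pcna, the sliding clamp that holds polymerases on DNA, was the most abundant member and stood at 164 and 173 TPM in the Numb exon 6 libraries, against 156 and 159 TPM in the control libraries. It gave 37.4% to 41.0% of the replication sum. Hmgb2, a chromatin protein that bends DNA, gave 41.7% to 50.7% of the mitosis sum. Without Hmgb2 the other mitosis genes summed to 63.9 and 63.6 TPM in the Numb exon 6 libraries, against 66.8 and 50.0 TPM in the control libraries.

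**Figure D1:**
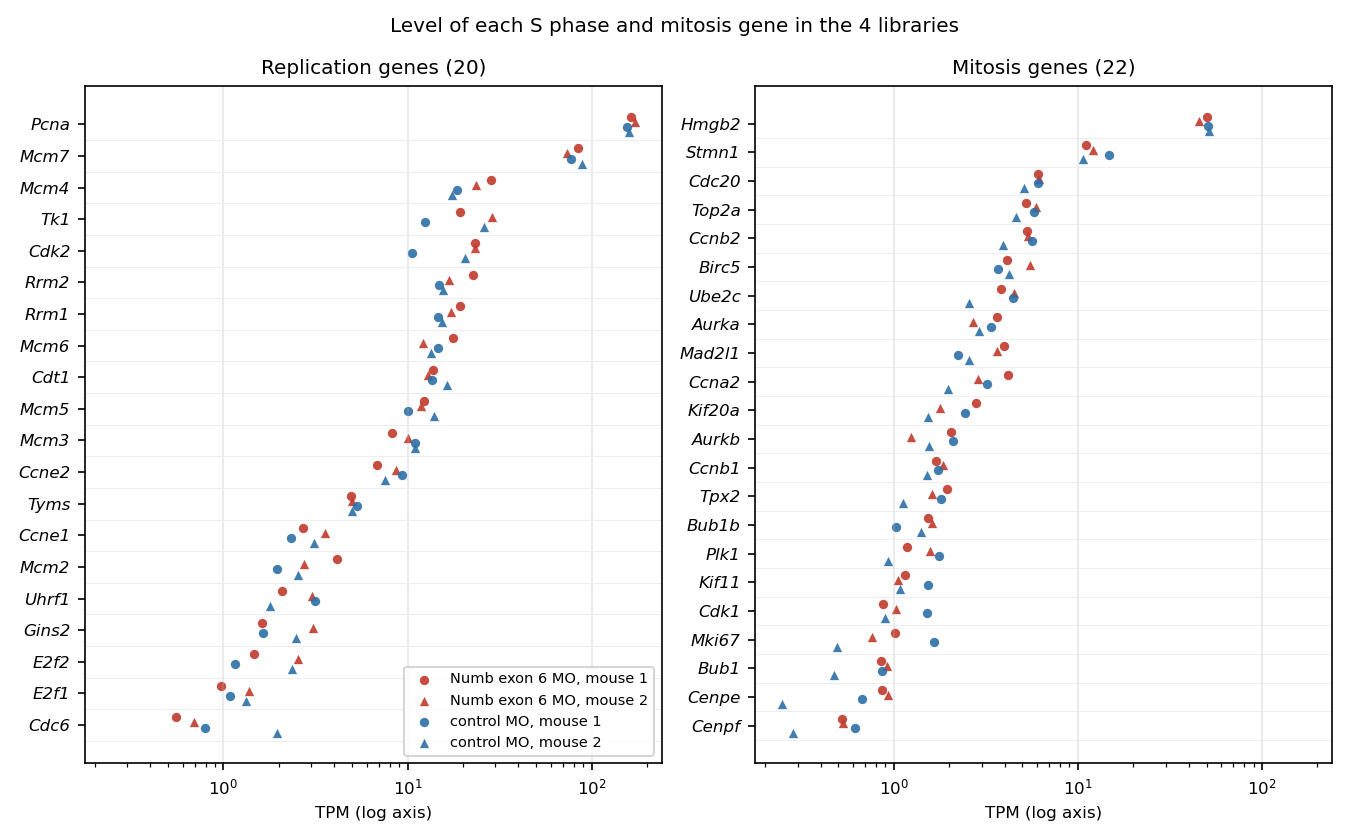
Each row is a gene, sorted by its mean level, and each point is 1 library, in TPM on a log axis. Red points are Numb exon 6 and blue points control morpholino (MO) libraries, circles mouse 1 and triangles mouse 2. Mean levels run from 1.00 TPM (Cdc6) to 163 TPM (Pcna) among replication genes and from 0.488 TPM (Cenpf) to 49.5 TPM (Hmgb2) among mitosis genes.

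No member passed the test for a difference between the morpholinos. In edgeR's quasi-likelihood test with Benjamini-Hochberg adjustment over all 27551 genes, 0 of 42 members were called at an adjusted p under 0.05, as were 0% of all genes. The adjusted p of every member was 0.999. At an unadjusted p under 0.05 stood 2 members, against 4.16% of all genes. They were Mcm4, which was higher (against 2.5% of all genes), and Cdc6, which was lower (against 1.66%). With the mouse as a block 2 members passed that unadjusted p, against 6.09% of all genes, and 0 were called. DESeq2 also called 0 members, against 0.236% of all genes, and 0 with the block, against 0.577%. The median log2 fold change (Numb exon 6 minus control) was 0.14 over the replication genes and 0.066 over the mitosis genes, against 0.0050 over all genes tested. The fold changes ran from -1.37 to 0.58 in replication and from -0.32 to 0.88 in mitosis genes, and 38 of the 42 lay under 0.5 in size.

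In 12 members the CPM of the groups did not overlap. The values were higher with the Numb exon 6 morpholino in 8 of them (Cdk2, Mcm4, Rrm1, Rrm2, Tyms, Bub1b, Mad2l1 and Cenpe), against 17.4% of all genes. They were lower in 4 (Cdc6, Cdt1, Mcm3 and Hmgb2), against 17.1% of all genes. The higher count is near the share of all genes and the lower one is below it.

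**Figure D2:**
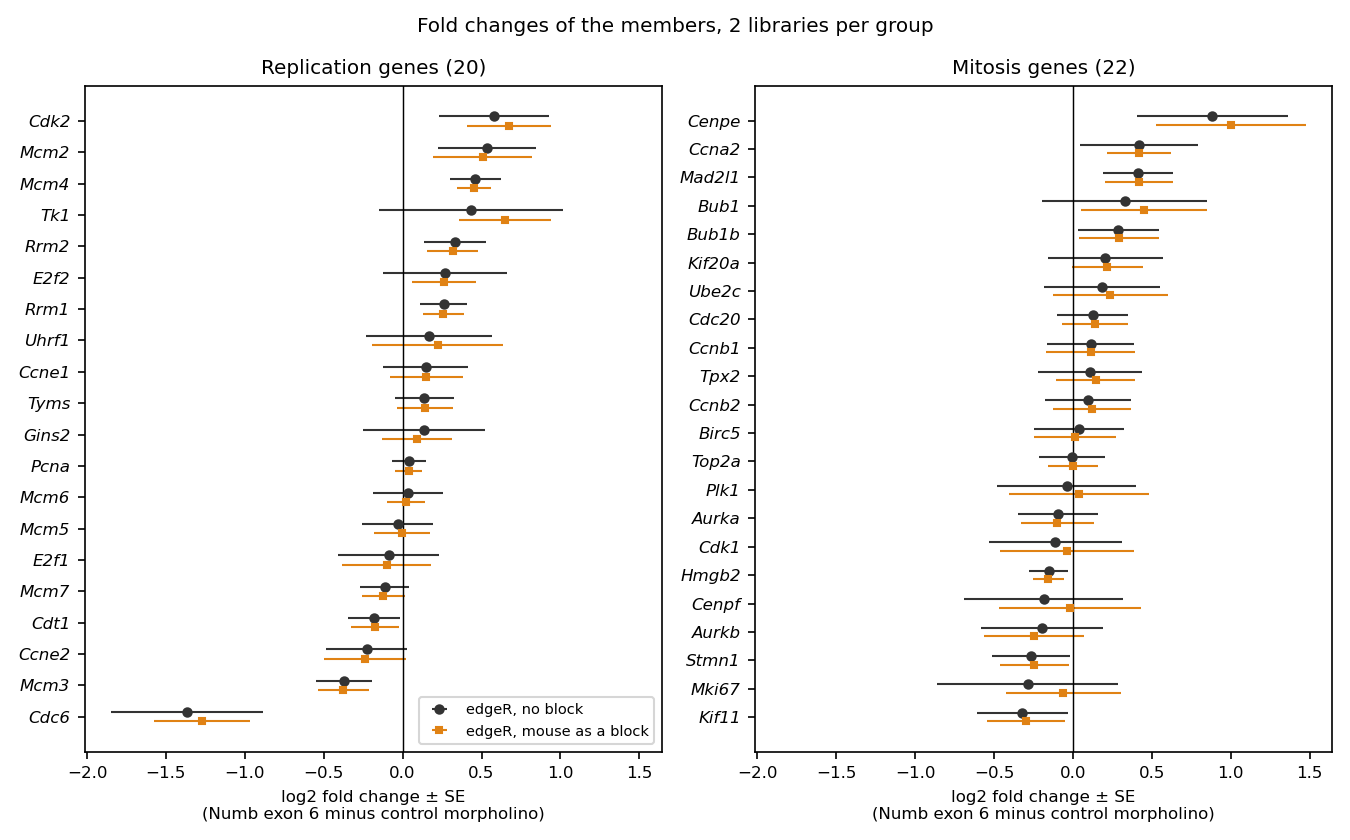
Each row is a gene, with its log2 fold change (Numb exon 6 minus control morpholino) and SE from edgeR without a block in black and with the mouse as a block in orange, over 2 libraries per group. The median SE of the members is 0.28 without and 0.24 with the block. Cdc6 lies farthest to the left, at -1.37, and Cenpe farthest to the right, at 0.88.

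Of the genes that start S phase, Cdk2 had the largest fold change. Cdk2, the kinase partner of E-type and A-type cyclins, stood at 32.0 and 32.5 CPM under Numb exon 6 morpholino of mouse 1 and mouse 2, against 14.1 and 29.2 CPM under control morpholino. The control library of mouse 1 was low and the other 3 lay close together. The log2 fold change came to 0.58 ± 0.35 (SE over 2 libraries per group; edgeR adjusted p = 0.999). Without the mouse 1 control the Cdk2 fold change was 0.15, and without the mouse 2 control 1.19. The E2F activator E2f1 was at 1.37 and 1.93 CPM under Numb exon 6 morpholino and at 1.60 and 1.91 CPM under control morpholino. Its groups overlapped, with a log2 fold change of -0.087 ± 0.32 (SE). Ccne1, which encodes cyclin E1, stood at 2.73 and 3.31 CPM under Numb exon 6 morpholino, against 2.40 and 3.05 CPM under control morpholino, and again the groups overlapped. The other members of this role, E2f2 and Ccne2, had log2 fold changes of 0.27 and -0.23.

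Origin licensing held the pair of members with the smallest p, and they went opposite ways. Mcm4, a subunit of the MCM helicase that is loaded at origins, stood at 50.8 and 41.3 CPM under Numb exon 6 morpholino and at 35.3 and 31.7 CPM under control morpholino. Both Numb exon 6 libraries were above both controls, with a log2 fold change of 0.46 ± 0.16 (SE over 2 libraries per group; edgeR unadjusted p = 0.0345, adjusted p = 0.999). Mcm4 lies on chromosome 16 of GRCm38, at 15623897 to 15637400. In TPM it stood at 28.5 and 23.6 in the Numb exon 6 libraries, against 18.7 and 17.4 in the control libraries.

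Cdc6, the ATPase that loads the MCM helicase and whose promoter is printed above, was low throughout. It stood at 0.937 and 1.36 CPM under Numb exon 6 morpholino of mouse 1 and mouse 2, against 1.80 and 4.10 CPM under control morpholino. Both Numb exon 6 libraries were below both controls, and the control library of mouse 2 stood apart from the other 3. The log2 fold change came to -1.37 ± 0.48 (SE over 2 libraries per group; edgeR unadjusted p = 0.0354, adjusted p = 0.999), and it was -0.66 when the mouse 2 control was left out. Its TPM of 0.554 and 0.690 in the Numb exon 6 libraries, against 0.796 and 1.96 in the control libraries, differed by -0.51 on log2(TPM + 1), a scale that compresses low values. Cdc6 lies on chromosome 11 of GRCm38, at 98907801 to 98923940 in GENCODE, a span that begins before the printed window and holds all of it.

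The 6 subunits of the MCM helicase, which assemble in equal number, had transcripts at unequal levels. Mean TPM ran from 2.85 for Mcm2 and 10.1 for Mcm3 over 12.0 for Mcm5, 14.4 for Mcm6 and 22.1 for Mcm4 to 81.2 for Mcm7. Mcm7 hosts the Mir106b, Mir93 and Mir25 genes and overlaps Ap4m1 and Cops6 on the opposite strand, and the libraries do not mark strand. Across the morpholinos Mcm7 stood at 84.1 and 66.3 CPM under Numb exon 6 morpholino, against 78.3 and 84.4 CPM under control morpholino, and its groups overlapped (log2 fold change -0.11 ± 0.16, SE). Mcm2 stood at 7.12 and 4.45 CPM under Numb exon 6 morpholino, against 3.49 and 4.51 CPM under control morpholino. Only the Numb exon 6 library of mouse 1 was high, and the log2 fold change was 0.53 ± 0.31 (SE). Mcm6, whose promoter is printed above, stood at 31.6 and 22.5 CPM under Numb exon 6 morpholino, against 29.2 and 23.6 CPM under control morpholino, with mouse 1 above mouse 2 under both morpholinos. Mcm3 and Mcm5 had log2 fold changes of -0.37 and -0.030. Cdt1, the partner of Cdc6 in loading the helicase, had one of -0.18 and lies inside the gene model Gm20388.

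At the replication fork, Pcna stood at 121 and 127 CPM under Numb exon 6 morpholino, against 122 and 120 CPM under control morpholino. Its log2 fold change of 0.040 ± 0.11 (SE over 2 libraries per group) had the smallest SE of the members, and the processed pseudogenes Pcna-ps1 and Pcna-ps2 may share reads with it. Gins2, a subunit of the GINS complex that completes the replicative helicase, had a log2 fold change of 0.13 ± 0.39 (SE). It overlaps Gm20388 over 10672 bases and Gse1 over 2758 bases, both on the opposite strand. Further members that overlap protein-coding genes on the opposite strand include Ccne2 (Ints8), Kif20a (Cdc23), Ube2c (Tnnc2), Ccna2 (Exosc9) and Cdk2 (Pmel). Uhrf1, which brings the maintenance DNA methyltransferase to new DNA, stood at 3.53 and 5.12 CPM under Numb exon 6 morpholino, against 5.09 and 2.60 CPM under control morpholino, so the mice went opposite ways.

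All 4 genes of deoxynucleotide supply were higher with the Numb exon 6 morpholino in both mice, against 28.1% of all genes, and none passed the test. Rrm2, the small subunit of ribonucleotide reductase, stood at 24.1 and 17.9 CPM under Numb exon 6 morpholino, against 16.7 CPM in each control library, with a log2 fold change of 0.33 ± 0.19 (SE over 2 libraries per group). Rrm1, the large subunit, had one of 0.26 ± 0.15 and Tyms, thymidylate synthase, one of 0.14 ± 0.19 (SE). On log2(TPM + 1) the fold change of Tyms was -0.047. Tk1, the thymidine kinase of dividing cells, stood at 14.7 and 23.0 CPM under Numb exon 6 morpholino, against 6.39 and 21.6 CPM under control morpholino. Its low value was the control library of mouse 1, and its log2 ratio of CPM was 1.21 in mouse 1 and 0.093 in mouse 2. The log2 fold change of Tk1 was 0.43 ± 0.59 (SE) without the block. With the mouse as a block it was 0.65 ± 0.29 (SE, edgeR adjusted p = 0.796). Without the mouse 1 control it was -0.19, in a fit that had no block and left mouse 1 unpaired. Tk1 lies wholly within the span of Gm20708, a gene model on the opposite strand.

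Mitotic kinases and cyclins stood near 1 to 6 CPM. Cdk1, the kinase that drives entry into mitosis, stood at 1.57 and 2.01 CPM under Numb exon 6 morpholino of mouse 1 and mouse 2, against 2.59 and 1.28 CPM under control morpholino. The controls were the highest and the lowest of the 4, and the log2 fold change came to -0.11 ± 0.42 (SE over 2 libraries per group). Ccna2, which encodes cyclin A2, stood at 6.22 and 3.81 CPM under Numb exon 6 morpholino, against 4.69 and 2.83 CPM under control morpholino. It was higher with the Numb exon 6 morpholino within both mice while the groups overlapped, since mouse 1 exceeded mouse 2 (log2 fold change 0.42 ± 0.37, SE). The log2 ratio of CPM was 0.41 in mouse 1 and 0.43 in mouse 2. With the mouse as a block the fold change was 0.42 ± 0.20 (SE, edgeR adjusted p = 0.796). Without the Numb exon 6 library of mouse 1 the fold change was 0.019, and without the mouse 1 control 0.83. Those fits had no block and left mouse 1 unpaired. Ccnb1 and Ccnb2, the B-type cyclins that activate Cdk1, differed by 0.11 ± 0.28 and 0.095 ± 0.27 on the log2 scale (SE), and each has a processed pseudogene (Ccnb1-ps and Ccnb2-ps) that may share its reads. Aurkb, the kinase of the chromosomal passenger complex, stood at 1.86 and 1.05 CPM under Numb exon 6 morpholino, against 1.84 and 1.50 CPM under control morpholino. Plk1 and Aurka, kinases of centrosomes and the spindle, had log2 fold changes of -0.041 and -0.093.

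The 5 genes of the spindle checkpoint and of anaphase onset had log2 fold changes from 0.13 to 0.41. Mad2l1, the checkpoint protein MAD2, stood at 4.72 and 4.69 CPM under Numb exon 6 morpholino, against 3.25 and 3.82 CPM under control morpholino. Its groups did not overlap, and the log2 fold change came to 0.41 ± 0.22 (SE over 2 libraries per group; edgeR adjusted p = 0.999). Cdc20, the activator of the anaphase-promoting complex that MAD2 holds back, stood at 5.41 and 5.40 CPM under Numb exon 6 morpholino, against 5.59 and 4.32 CPM under control morpholino. The checkpoint kinase Bub1 was at 1.36 and 1.03 CPM under Numb exon 6 morpholino, against 1.35 and 0.546 CPM under control morpholino. Bub1b and Ube2c, the ubiquitin-conjugating enzyme of that complex, had 0.29 and 0.18.

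Of the kinetochore and spindle genes, Cenpe had the largest fold change. Cenpe, the kinesin that carries chromosomes to the spindle equator, stood at 2.29 and 2.94 CPM under Numb exon 6 morpholino, against 2.00 and 0.831 CPM under control morpholino. The control library of mouse 2 was low, and leaving it out gave a log2 fold change of 0.38, while leaving out the mouse 1 control gave 1.65. Over all libraries the log2 fold change came to 0.88 ± 0.48 (SE over 2 libraries per group; edgeR adjusted p = 0.999). Stmn1, which destabilises microtubules, stood at 5.81 and 5.89 CPM under Numb exon 6 morpholino, against 8.32 and 5.77 CPM under control morpholino, where mouse 1 alone was high. Birc5, the passenger complex protein survivin, had a log2 fold change of 0.037 ± 0.28 (SE). Kif11, the motor that separates spindle poles, had -0.32, and Kif20a, a motor of cytokinesis, 0.21. Tpx2, which activates Aurora A on the spindle, had 0.11, and Cenpf, a kinetochore protein, -0.18.

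Mki67, which encodes the Ki-67 protein that coats mitotic chromosomes and marks cycling cells, differed more between the control libraries of the mice than any other mitosis gene. It stood at 5.21 and 3.89 CPM under Numb exon 6 morpholino of mouse 1 and mouse 2, against 8.52 and 2.57 CPM under control morpholino. The control libraries were the highest and the lowest of the 4, and the log2 fold change came to -0.29 ± 0.57 (SE over 2 libraries per group). In TPM it stood at 1.01 and 0.760 in the Numb exon 6 libraries, against 1.64 and 0.491 in the control libraries. Mki67 lies on chromosome 7 of GRCm38, at 135689784 to 135716361. Top2a, the topoisomerase that untangles chromosomes, stood at 10.6 and 9.14 CPM under Numb exon 6 morpholino, against 11.2 and 8.66 CPM under control morpholino, and Hmgb2 at 66.1 and 59.2 CPM, against 70.2 and 69.2 CPM under control morpholino. Their log2 fold changes were -0.0089 ± 0.21 and -0.15 ± 0.12 (SE).

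Within each mouse, 1 library per morpholino allowed no test, and the ratios are given as values. The median log2 ratio of CPM (Numb exon 6 minus control, prior count of 2) over the replication genes was 0.089 in mouse 2 and 0.15 in mouse 1. Over the mitosis genes it was 0.31 in mouse 2 and -0.080 in mouse 1, and over all genes tested it was 0.0015 and 0.0021. The 54 other mitotic genes described below had medians of 0.14 in mouse 2 and 0.13 in mouse 1. Of the mitosis genes 13 of 22 went opposite ways in the mice, as did 9 of 20 replication genes, against 43.9% of all genes. In both mice 14 members were higher and 6 lower, against 28.1% and 27.3% of all genes. On log2(TPM + 1) these were 17 and 5, against 32.1% and 23.0%.

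Ratios over 0.5 in size and opposite in the mice occurred in 5 of the 42 members, against 11.3% of all genes. This count is near the share of all genes, and 4 of the 5 are mitotic. The log2 ratio in mouse 2 and in mouse 1 was 0.75 and -0.79 for Cenpf, 0.73 and -0.66 for Plk1, 0.65 and -0.72 for Cdk1, and 0.60 and -0.71 for Mki67. Uhrf1, the replication gene among them, had 0.98 in mouse 2 and -0.53 in mouse 1. Cdc6 was the member with ratios over 0.5 in size and the same sign, with -1.59 in mouse 2 and -0.94 in mouse 1, against 12.9% of all genes. Leaving out the mouse 1 control gave a median of 0.36 over the mitosis genes, and leaving out the mouse 2 control one of -0.18.

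**Figure D3:**
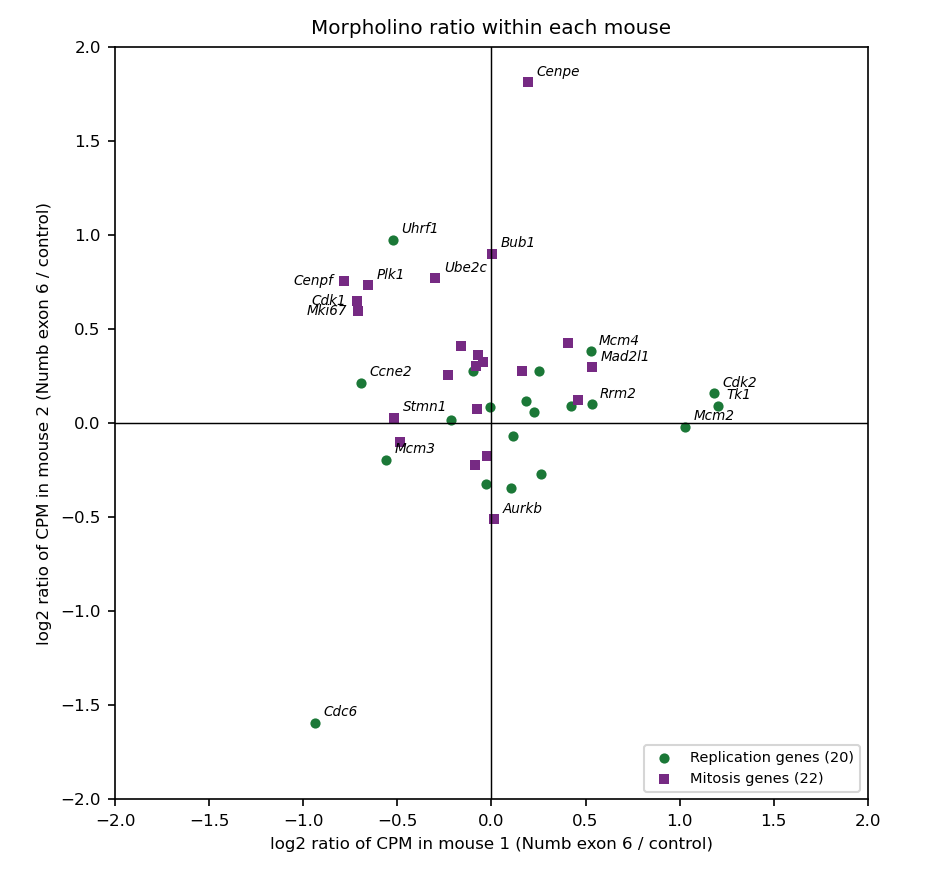
Each point is a gene, with the log2 ratio of CPM (Numb exon 6 over control morpholino) in mouse 1 on the horizontal and in mouse 2 on the vertical axis. Green circles are replication and purple squares mitosis genes, and genes over 0.5 in size in either mouse are named. Cenpf, Plk1, Cdk1, Mki67 and Uhrf1 sit in the upper left, where the mice go opposite ways, and Cdc6 in the lower left.

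In 18 of the 22 mitosis genes the mice differed more under the control than under the Numb exon 6 morpholino, as values of 1 animal against 1, against 53.3% of all genes. With the Numb exon 6 morpholino 13 of the 22 were lower in mouse 2, with a median log2 difference (mouse 2 minus mouse 1) of -0.042, against 48.4% of all genes. With the control morpholino 19 of the 22 were lower in mouse 2, with a median of -0.56, against 48.9% of all genes. The 4 mitosis genes furthest apart with the control had differences of -1.73 for Mki67, -1.42 for Cenpf, -1.30 for Bub1 and -1.26 for Cenpe, and with the Numb exon 6 morpholino these genes had -0.42, 0.12, -0.40 and 0.36. The other way round, 4 genes differed more with the Numb exon 6 than with the control morpholino, namely Aurkb (-0.82 and -0.30), Birc5 (0.54 and 0.052), Aurka (-0.30 and -0.15) and Hmgb2 (-0.16 and -0.021). The replication genes had medians of 0.046 with the Numb exon 6 and 0.20 with the control morpholino, and Tk1 and Cdc6 were higher in mouse 2 in the controls, by 1.76 and 1.18. Of 54 other mitotic genes, 34 were lower in mouse 2 with the Numb exon 6 and 35 with the control morpholino. Their medians were -0.13 and -0.25, so the gap between the morpholinos was narrower there than in the 22 mitosis genes. Whether the difference between the mice depends on the morpholino could not be tested with 1 library for each combination.

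Taking both libraries of a mouse, 10 of the 22 mitosis genes were lower in mouse 2 than in mouse 1 without overlap, against 18.8% of all genes. Higher without overlap in mouse 2 was 1 mitosis gene, against 20.9% of all genes. Among the replication genes 1 was lower and 6 were higher in mouse 2 without overlap. Of 54 other mitotic genes, 16 were lower and 5 higher in mouse 2 without overlap, and of 48 other replication genes 7 were lower and 8 higher.

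**Figure D4:**
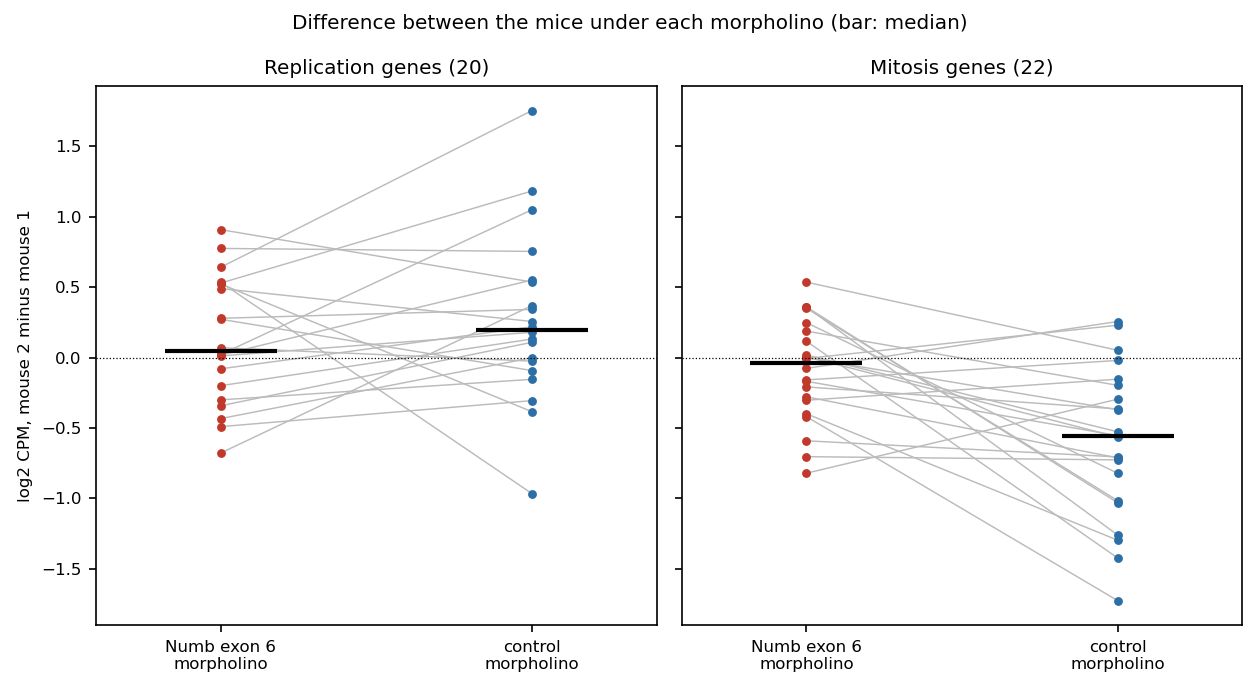
Each point is a gene, with the log2 difference of CPM between the mice (mouse 2 minus mouse 1) under the Numb exon 6 morpholino in red and under the control in blue, joined by a grey line, and black bars are medians. The medians of the mitosis genes are -0.042 and -0.56, and those of the replication genes 0.046 and 0.20.

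Markers of other cells also differed between these libraries. The 15 leukocyte markers summed to 47.9 and 137 TPM in the Numb exon 6 libraries of mouse 1 and mouse 2, against 36.9 and 38.4 TPM in the control libraries, and 11 of 15 exceeded the control in both mice, against 28.1% of all genes. S100a8 and S100a9 of neutrophils gave most of the sum in the Numb exon 6 library of mouse 2, at 46.5 and 36.0 TPM. Ptprc, the pan-leukocyte marker, was at 1.21 and 0.719 TPM in the Numb exon 6 libraries, against 0.572 and 0.0520 TPM in the control libraries. Of the 15 leukocyte markers, 9 had their lowest TPM in the control library of mouse 2 and 1, Csf1r, its highest, while 14 of the 22 mitosis genes and 2 of the 20 replication genes were lowest there, against 23.6% of all genes. The median TPM of satellite cell, fibro-adipogenic progenitor and endothelial markers was also lowest in that library, at 281, 75.8 and 5.15. The median of the erythroid markers was 3.40 there and lowest in the control library of mouse 1, at 2.14. Where edgeR called none, DESeq2 called the macrophage and neutrophil gene Lyz2 (adjusted p = 0.00457), and with the mouse added as a block it called Lyz2 (adjusted p = 0.000152), S100a9 (adjusted p = 0.0102) and the satellite cell gene Myf5 (adjusted p = 3.13e-06, log2 fold change 0.72 in edgeR). The 10 erythroid markers, mainly globins, summed to 928 and 1735 TPM in the Numb exon 6 libraries, against 539 and 1533 TPM in the control libraries. Gata1 of erythroid precursors stood at no more than 0.0606 TPM in any library and was listed at 0 in the control library of mouse 2. Endothelial markers summed to 148 and 105 TPM, against 103 and 97.8 TPM in the control libraries, and fibro-adipogenic progenitor markers to 1877 and 1752 TPM, against 1766 and 1647 TPM. None of these markers was at 0 in all 4 libraries, and their part in the values of the cell cycle genes was not tested.

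Other genes of replication and mitosis gave the same absence of calls. Of 48 other replication genes, 0 were called, 17 exceeded the control in both mice and 7 lay below it in both (against 28.1% and 27.3% of all genes), and the median log2 fold change was 0.069. The most abundant were Slbp, Orc4 and Orc6, with log2 fold changes of -0.055, 0.075 and 0.15. At an unadjusted edgeR p under 0.05 stood 2, against 4.16% of all genes, namely Pold1, the catalytic subunit of polymerase delta, with 0.75 ± 0.19, and Wdhd1, which links helicase and polymerase alpha, with 0.81 ± 0.29 (SE, n = 2 per group). Pold1 stood at 7.24 and 7.37 CPM under Numb exon 6 morpholino, against 4.34 CPM in each control library.

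Of the 54 other mitotic genes, 0 were called, 18 were higher and 7 lower in both mice (again against 28.1% and 27.3% of all genes), and the median log2 fold change was 0.080. Pttg1, Bub3 and Cks1b, the most abundant, had log2 fold changes of 0.084, 0.037 and 0.039. At an unadjusted p under 0.05 stood 2 (against 4.16%), the spindle proteins Ckap2 with 0.64 ± 0.23 and Ska1 with 1.28 ± 0.49 (SE). Of 18 E2F, RB and DREAM regulators, 0 were called, 6 were higher and 4 lower in both mice (against the same 28.1% and 27.3%), and the median was -0.025. Rbbp4, E2f4 and Lin52, the most abundant, had -0.047, -0.053 and -0.12. Rbl2, which encodes the pocket protein p130 of the DREAM complex in quiescent cells, had an unadjusted p of 0.0413 in edgeR, and no other regulator was under 0.05, against 4.16% of all genes. It stood at 15.8 and 16.8 CPM under Numb exon 6 morpholino, against 10.5 and 12.9 CPM under control morpholino, with a log2 fold change of 0.48 ± 0.18 (SE; adjusted p = 0.999).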

How the data were processed

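Gene expression was measured by RNA-seq in 4 libraries, with groups and mice taken from the labels. SMART-Seq2 cDNA, which does not mark strand, was made from 5 ng of RNA, per the labels' protocols. GRCm38, HISAT2 2.1.0 and StringTie 1.3.6 are named in the submitters' processing notes. How coverage became counts, and on which annotation release, is not given in the sources used here. Estimated counts, deposited by the authors as whole numbers, pile up at 4 and 8, so they are not fragments counted once. TPM values, also deposited by the authors, are relative to transcript length and library.

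The test was edgeR 4.0.16 in R 4.3.3 (quasi-likelihood, robust, TMM factors, default filter by group, no block) on all 27551 genes that passed, with Benjamini-Hochberg adjustment at 0.05. CPM is scaled by TMM, and the SE derives from the quasi-likelihood statistic. Same-numbered libraries come from the same mouse and so are paired; their deviations from the group means correlated at 0.40 over the genes with mean log2 CPM from 3 upward and at 0.056 over all 27551 genes, and most mitosis genes lie below that level. The p-values measure the spread between libraries of 2 mice. Alternatives were the mouse as a block, other size factors and filters, DESeq2 1.42.0, limma 3.58.1 on voom and TPM values, counts divided by 4, and removal of each library. On simulated counts the tests recovered the median size of the changes put in, and both edgeR and DESeq2 made a larger share of false calls than the adjusted threshold allows, DESeq2 more so. A pair of rRNA-like genes held 6.53% and 5.06% of counts in the Numb exon 6 libraries, against 8.95% and 5.00% in the control libraries.

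Members and lists were chosen with earlier results of these data known. Named in full were, per class, the 6 members with the highest TPM and the 3 with the largest fold change, 12 fixed genes, and those at an unadjusted p under 0.05. Of the other lists, the 3 with the highest TPM and those at such a p were named. Gene coordinates come from GENCODE vM21. Further members and markers are named as the full set behind a count, by role, or because they moved with a result, chosen after their values were seen.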

Additional observations from a re-analysis of the deposited data

Results flagged for a closer look

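The log2 ratio of the morpholinos pointed in opposite directions in the 2 mice for the median of the mitosis genes and for 22 members, against 43.9% of all genes. With 1 library per morpholino in a mouse, these differences were not tested. The difference (mouse 2 minus mouse 1) was 0.39 for the mitosis median, from ratios of 0.31 in mouse 2 and -0.080 in mouse 1. Over the 54 other mitotic genes the median ratio was 0.14 in mouse 2 and 0.13 in mouse 1, so that median kept its sign.

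The widest differences belonged to Cenpf with 1.54, Uhrf1 with 1.50, Plk1 with 1.39, Cdk1 with 1.37 and Mki67 with 1.31, each with a ratio above 0 in mouse 2 and below 0 in mouse 1. The same signs held for Ube2c with 1.07, Ccne2 with 0.91, Ccnb2 with 0.57, Stmn1 with 0.55, Birc5 with 0.48, Tpx2 with 0.43, Ccnb1 with 0.39, Cdc20 with 0.37, Gins2 with 0.37, E2f1 with 0.23, Top2a with 0.16 and Pcna with 0.095. The signs were the other way for Mcm2 with -1.05, Mcm5 with -0.53, Aurkb with -0.53, Mcm7 with -0.45 and Mcm6 with -0.18. In several of these a ratio within 1 mouse was close to 0, as for Mcm2 in mouse 2 (-0.019) and Aurkb in mouse 1 (0.015).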

How the results depend on the processing

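No alternative called a member: of 324 values of the 24 members described in full, 303 kept their sign and side of the threshold and 21 changed sign, 17 of them when 1 library was left out. The smallest adjusted p of a member was 0.129, for Cdc6 in DESeq2 with the mouse as a block. With the replicate block (the mouse), edgeR called 0 genes and 0 members, with 1677 genes at an unadjusted p under 0.05, and the medians were 0.12 for replication and 0.074 for mitosis genes; the block changed no call. Calls over all genes numbered 10 without a filter, 1 when 2 libraries had to reach a CPM of 5, 65 in DESeq2 and 159 in DESeq2 with the block, and 0 to 1 without each library in turn. The replication median was 0.034 with that CPM filter, which tests fewer genes, 0.076 on log2(TPM + 1) and 0.087 on log2(TPM + 0.1), and the mitosis median was -0.16, 0.11 and 0.16 in these, so on both TPM scales it exceeded the replication median. Cdc6 could not be tested with that filter. Of the mitosis genes described in full, only Cdc20, Stmn1, Mki67, Top2a and Hmgb2 passed it. The mitosis median of -0.16 there was the value of Hmgb2. Without each library in turn the replication and mitosis medians ran from -0.018 to 0.24 and from -0.18 to 0.36. Signs near 0 turned in limma-voom for Birc5 (-0.0092) and Top2a (0.0011), and on log2(TPM + 1) and log2(TPM + 0.1) for Top2a (0.094 and 0.11). Without each library in turn, fold changes ran from -0.35 to 0.14 for E2f1, -0.014 to 0.32 for Ccne1, -0.23 to 0.26 for Mcm6, -0.29 to 0.048 for Mcm7, -0.19 to 1.56 for Tk1, -0.54 to 0.49 for Cdk1, -0.17 to 0.41 for Ccnb2 and -0.67 to 0.16 for Aurkb. They ran from -0.055 to 0.32 for Cdc20, -0.26 to 0.28 for Birc5, -0.52 to 0.020 for Stmn1, -0.91 to 0.82 for Mki67 and -0.19 to 0.19 for Top2a. Without a turn of sign they ran from 0.15 to 1.19 for Cdk2, 0.15 to 0.83 for Mcm2, 0.10 to 0.53 for Rrm2, 0.019 to 0.83 for Ccna2 and 0.38 to 1.65 for Cenpe. Leaving out a library leaves 1 in its group, whose spread is taken from the other group, and leaves its mouse unpaired. These fits had no block, so a difference between the mice can enter the fold change. The causes of these shifts were not tested. The deposited counts do not give depth in fragments, so what depth limits cannot be stated.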
